A study of Mus musculus with 8 samples.

Results

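The genes that build and cross-link elastic fibres were followed in whole embryonic small intestine of the mouse, as 10 named genes out of the 55681 in the deposited table. They were taken by gene symbol, and all 10 were found. The symbols were Eln, Fbn1, Fbn2, Fbln1, Fbln2, Fbln5, Lox, Loxl1, Loxl2 and Emilin1. RNA was sequenced in 8 samples of small intestine from E15.5 embryos on a C57BL6J background. The 4 controls were labelled Slmap fl/fl, and the 4 samples labelled cKO were Slmap fl/fl with a Cre that the labels spell both Derom-Cre and Dermo-Cre. Both groups therefore carried the floxed alleles, and the Cre was present in one group only. Dermo1 is the former symbol of Twist2, which is active in mesenchymal cells, so the deletion was aimed at the mesenchyme while the whole organ was measured.

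An elastic fibre is a core of cross-linked elastin on a scaffold of fibrillin microfibrils. Cells secrete the soluble precursor tropoelastin, fibulins and EMILIN-1 help to place it on the microfibrils, and lysyl oxidases oxidise lysine side chains so that the monomers become joined. In hollow organs such as gut and vessels these fibres let the wall stretch and recoil, and fibroblasts, smooth muscle cells, endothelial cells and mesothelial cells can all make their parts. Fibrillins and the related latent TGF-beta binding proteins also hold TGF-beta and BMP growth factors in the matrix.

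Slmap itself, a membrane protein gene of the STRIPAK phosphatase complex, was not lower in the cKO-labelled libraries. It lay at 24.1 ± 0.92 FPKM (fragments scaled to gene length and to library size) in the controls and at 25.5 ± 1.40 FPKM in the cKO-labelled libraries (SD, n = 4 each). The value sums reads over the whole gene and over all cells of the organ, and the sources used here do not give the floxed exon. Directions below follow the labels. Reads recovered from the FPKM summed to between 15663837 and 17806397 per library, and controls 3 and 4 showed reads for more genes (25832 and 25934) than any other library. The library total implied by the FPKM was 1.09 and 1.06 times the summed reads in controls 3 and 4. In the other libraries it was 0.969 to 1.01 times that sum. Gut epithelium was well represented, with Epcam at 309.9 ± 28.1 FPKM in the controls and Cdx2 at 72.0 ± 18.2 FPKM. Acinar pancreas genes were seen as well, with Ctrb1 ranging from 105.3 to 544.1 FPKM and Cpa1 from 9.99 to 72.2. All 4 tested pancreas genes averaged lower in the cKO-labelled libraries, with overlapping groups and a median log2 fold change of -0.60. Averaged over the pancreas list, log2(FPKM + 1) minus each gene's mean was highest in cKO 1 (0.71) and lowest in cKO 3 (-0.84) and cKO 4 (-0.55). The part of pancreas tissue in the differences below was not tested. Of 6 liver genes Ahsg was at 0 in every library and Alb, Fga and Apoh averaged under 1 FPKM. The other 2 liver genes were tested and lay higher on average in the cKO-labelled libraries. Serpina1a lay at 1.94 ± 1.19 against 5.44 ± 2.13 FPKM without overlap, as in 9.61% of all genes on the higher side (limma adjusted p = 0.127). Cps1, which gut epithelium also makes, lay at 344.2 ± 112.8 against 443.8 ± 72.4 FPKM (limma adjusted p = 0.344).

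All 10 genes were expressed and passed the filter of a mean of 1 FPKM over the 8 libraries. In FPKM, which is per gene length, the order of the mean levels was Fbln1 (46.0 ± 8.62 FPKM, SD, n = 8), Lox (35.1 ± 4.93 FPKM) and Emilin1 (34.9 ± 9.56 FPKM), then Loxl2 (21.6 ± 1.11 FPKM), Fbn1 (20.9 ± 5.88 FPKM) and Fbn2 (20.9 ± 5.58 FPKM). Eln (9.20 ± 2.96 FPKM), Loxl1 (8.11 ± 2.33 FPKM), Fbln2 (6.60 ± 2.44 FPKM) and Fbln5 (5.37 ± 1.34 FPKM) followed. By this measure Eln, the gene of the core protein, was among the lower of the 10 at this stage. The order between genes rests on the deposited gene lengths (8098 bases for Eln), which need not be those of the transcripts present. Only 2 steps in this order were free of overlap between the ranges of neighbours. Emilin1 stood above Loxl2 in 8 of 8 libraries, and Fbn2 above Eln in 8 of 8. Lox was above Emilin1 in 4 of 8 libraries, Loxl2 above Fbn1 in 4 of 8 and Fbn1 above Fbn2 in 3 of 8, so these neighbours did not differ beyond their spread. Reads behind a single value ranged from 286 for Loxl1 to 6453 for Fbn2.

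The comparison of the groups asks which transcripts differ between cKO-labelled and control gut. In it, 9 of the 10 genes lay lower in the cKO-labelled libraries, as did 50.3% of all genes, and none passed the threshold. The largest differences were those of Fbln2, Eln, Loxl1 and Emilin1, at 0.561 to 0.732 of the control level on the log2(FPKM + 1) scale, while Loxl2 alone lay higher. The median log2 fold change over the 10 genes was -0.27, beside a median of -0.0016 over the 14220 genes tested. With limma, 0 of the 10 had an adjusted p under 0.05, and over all genes 0.0141% were called lower and 0% higher. At an unadjusted p under 0.05 there were 3 members lower and 0 higher, a rule that 9.87% of all genes met on the lower side and 12.6% on the higher. limma-voom on the recovered reads also called 0 members, with 4 lower at an unadjusted p under 0.05, beside 9.71% of all genes in that fit. In bulk tissue, fewer cells of a type and less RNA per cell cannot be told apart.

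**Figure D1:**
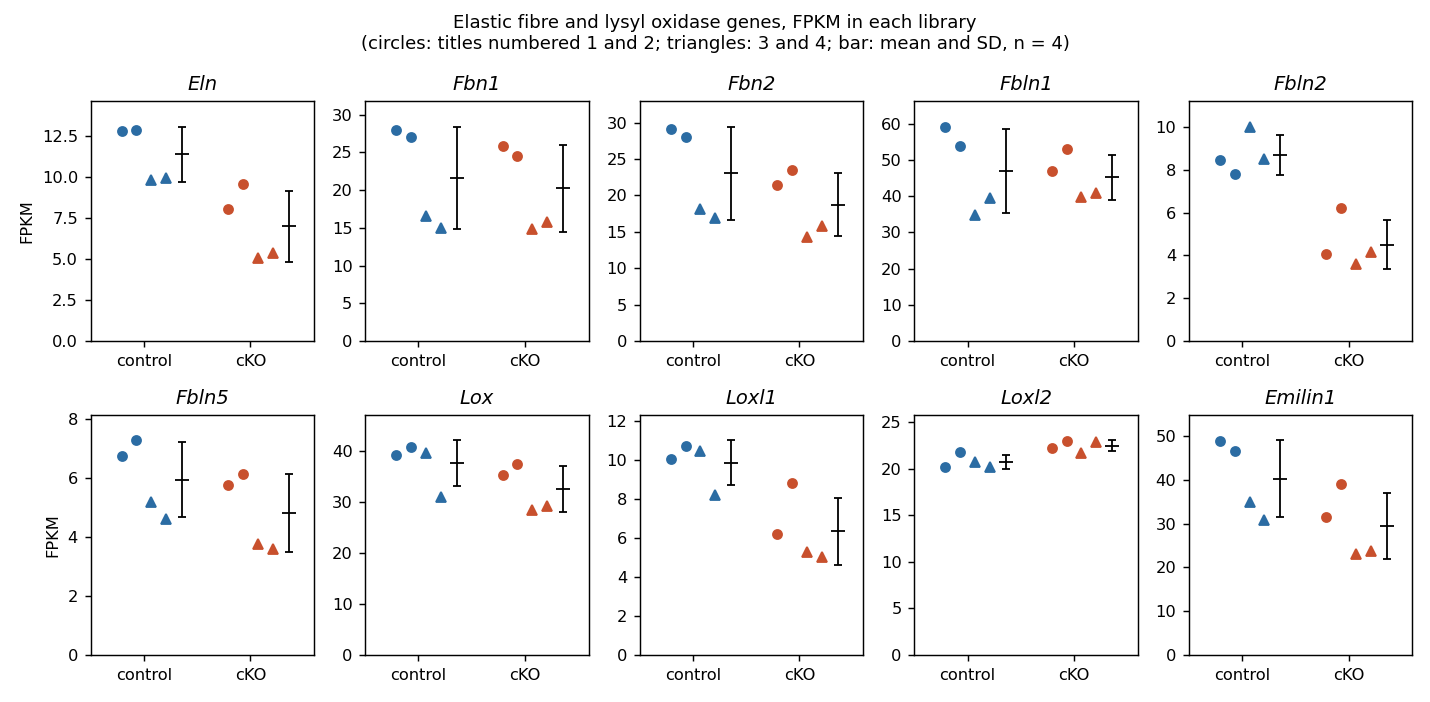
FPKM of the 10 genes in each library, with blue for the 4 controls and orange for the 4 cKO-labelled libraries, circles for titles numbered 1 and 2, triangles for 3 and 4, and the group mean with its SD in black. For Eln and Fbln2 every cKO-labelled library lies below every control. For Eln, Fbn1, Fbn2, Fbln1, Fbln5 and Emilin1 the circles stand above the triangles in both groups.

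Elastin was lower in every cKO-labelled library than in any control. Eln (ENSMUSG00000029675, GRCm39 chromosome 5, 134731447 to 134776177, minus strand), which encodes tropoelastin, lay at 12.9, 12.9, 9.87 and 9.97 FPKM in controls 1 to 4. In cKO-labelled libraries 1 to 4 the values were 8.05, 9.56, 5.06 and 5.38 FPKM. The groups did not overlap, although control 3 and cKO 2 came within a narrow margin, and within each group the libraries numbered 3 and 4 were the lower ones. The means were 11.4 ± 1.71 and 7.01 ± 2.16 FPKM (SD, n = 4 each). On the log2 scale the fold change was -0.66 ± 0.19 (SE), with a 95% interval of the fold from 0.470 to 0.853, and it missed the threshold (limma adjusted p = 0.101). Permuting the group labels exactly over the 70 assignments, 2-sided, gave p = 0.0286, the smallest it can give, unadjusted for the other genes. Groups without overlap on the lower side were seen for 2 of the 10 members, Eln and Fbln2, and for 5.75% of all genes.

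The fibrillins, which form the microfibril scaffold, varied more with the number in the library title than with the group. Fbn1 (ENSMUSG00000027204, chromosome 2, 125142514 to 125349913, minus strand) is the main fibrillin of adult tissue and the gene mutated in Marfan syndrome. It lay at 27.9, 27.0, 16.5 and 14.9 FPKM in controls 1 to 4 and at 25.9, 24.5, 14.9 and 15.7 FPKM in cKO-labelled libraries 1 to 4. Libraries 1 and 2 were high and libraries 3 and 4 low in both groups, and the groups overlapped throughout. Fbn1 differed by -0.08 ± 0.25 on the log2 scale (SE, limma adjusted p = 0.887), and the 95% interval of the fold ran from 0.635 to 1.41. The direction was lost when control 1, control 2, cKO 3 or cKO 4 was left out, with log2 fold changes of 0.02 to 0.06.

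Fbn2 (ENSMUSG00000024598, chromosome 18, 58141695 to 58343559, minus strand) is the fibrillin used mostly before birth. It lay at 29.1, 28.1, 18.1 and 16.9 FPKM in the controls and at 21.4, 23.4, 14.3 and 15.8 FPKM in the cKO-labelled libraries. The groups overlapped, but each cKO-labelled library lay below both controls that shared its range of numbers. In the fit, Fbn2 stood at -0.27 ± 0.22 on the log2 scale (SE, limma adjusted p = 0.497). Within a library, Fbn2 relative to Fbn1 was lower in the cKO-labelled group. The log2 ratio of Fbn2 to Fbn1, with 1 added to each FPKM, was 0.057, 0.054, 0.12 and 0.17 in the controls. In the cKO-labelled libraries it was -0.26, -0.06, -0.05 and 0.005, and the groups did not overlap. The difference of -0.19 passed an exact 2-sided permutation test (p = 0.0286, the smallest the design allows, and 0.0476 adjusted over 5 ratios). The 5 ratios were chosen with earlier results of these data known, so passing is not independent evidence. With 1 library left out, the adjusted p of this ratio rose to between 0.0714 and 0.0952. The 2 genes have nearly the same GC content, 52.3% for Fbn1 and 52.6% for Fbn2 in their longest annotated transcripts. After a correction for GC content and gene length, added after seeing the data, the difference was -0.18 (exact permutation, 0.0476 adjusted).

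Of the 3 fibulins, Fbln2 had the smallest p-value of all members and Fbln1 hardly differed between the groups. Fbln2 (ENSMUSG00000064080, chromosome 6, 91189437 to 91249522, plus strand) encodes a glycoprotein of vessel walls, developing mesenchyme and basement membranes that binds fibrillin and tropoelastin. It lay at 8.44, 7.82, 10.02 and 8.51 FPKM in the controls and at 4.06, 6.21, 3.61 and 4.14 FPKM in the cKO-labelled libraries. All 4 controls stood above all 4 cKO-labelled libraries, with cKO 2 nearest to the controls and control 3 highest. Fbln2 differed by -0.83 ± 0.14 on the log2 scale (SE), the interval of the fold ran from 0.449 to 0.702, and the adjusted p was 0.0749 (limma). On the lower side 28 of the 14220 genes had an unadjusted p as small as that of Fbln2 or smaller, itself included. When the filter was raised to a mean of 5 FPKM, the limma adjusted p of Fbln2 was 0.04999, a call that 0.261% of those genes shared on the lower side.

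Fbln1 (ENSMUSG00000006369, chromosome 15, 85090150 to 85170736, plus strand), a fibulin found within the elastin core and along basement membranes, had the highest mean FPKM of the members. It lay at 59.2, 53.9, 34.9 and 39.4 FPKM in the controls and at 46.95, 53.0, 39.7 and 40.9 FPKM in the cKO-labelled libraries. Controls 1 and 2 were highest and controls 3 and 4 lowest, with the cKO-labelled libraries spread between them. Its fold change was -0.03 ± 0.18 on the log2 scale (SE, limma adjusted p = 0.941), and its direction turned in 5 of 23 alternatives. The log2 ratio of Fbln2 to Fbln1 was -2.28 ± 0.47 in the controls and -3.08 ± 0.15 in the cKO-labelled libraries (SD, n = 4 each). That difference of -0.80 came with no overlap. Its exact permutation p was 0.0286, or 0.0476 adjusted over the 5 ratios, which were chosen with earlier results of these data known. The difference was -0.42 when controls 3 and 4 were left out, since those controls had the highest ratios, -1.70 and -2.09.

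Fbln5 (ENSMUSG00000021186, chromosome 12, 101712824 to 101785314, minus strand) tethers tropoelastin and LOXL1 to microfibrils, and mice without it have loose, fragmented elastic fibres. It had the lowest mean FPKM of the members, with 6.72, 7.27, 5.18 and 4.59 FPKM in the controls and 5.76, 6.14, 3.76 and 3.58 FPKM in the cKO-labelled libraries. The groups overlapped, with cKO 1 and 2 above controls 3 and 4. Its fold change was -0.27 ± 0.19 on the log2 scale (SE, limma adjusted p = 0.426). The ratio of Fbln5 to Fbln1 differed by -0.24 on the log2 scale with overlapping groups (exact permutation p = 0.143, and 0.143 adjusted over the 5 ratios). After the GC content and length correction, added after seeing the data, it was -0.43, without overlap (exact permutation p = 0.0286, and 0.0476 adjusted).

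The promoter windows of the 2 fibulins that differ most in their change are shown because a reader may want to see what lies upstream of each. RefSeq windows of 250 bases before to 50 after the start, on GRCm38.p6, were found for 5 of the 10 members, as 7 windows. Eln, Fbn2, Lox, Loxl1 and Loxl2 had no window and are not covered. Fbln2 is at chr6:91212514-91212813 and the first listed window of Fbln1 at chr15:85205699-85205998, both on the plus strand, and capitals mark GGGCGG or its reverse complement, the letters of a GC box.
Fbln2: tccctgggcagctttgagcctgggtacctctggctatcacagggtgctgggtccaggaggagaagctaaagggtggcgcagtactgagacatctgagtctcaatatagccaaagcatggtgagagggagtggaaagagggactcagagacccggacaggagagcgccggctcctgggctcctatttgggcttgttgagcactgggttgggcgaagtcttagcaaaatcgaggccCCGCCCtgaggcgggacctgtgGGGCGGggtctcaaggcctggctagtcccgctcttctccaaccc
Fbln1: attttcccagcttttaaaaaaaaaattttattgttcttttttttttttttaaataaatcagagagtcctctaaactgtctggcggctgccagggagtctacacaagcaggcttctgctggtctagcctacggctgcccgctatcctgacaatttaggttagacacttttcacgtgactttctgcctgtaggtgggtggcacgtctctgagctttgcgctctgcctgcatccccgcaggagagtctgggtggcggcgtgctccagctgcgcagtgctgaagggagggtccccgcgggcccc
The Fbln2 window held 2 such matches and the printed Fbln1 window 0, with GC contents of 60.3% and 51.7%. The second window of Fbln1, at chr15:85205758-85206057 and overlapping the first, held 2 as well and was 64% GC, so the letters do not set the 2 genes apart. Of the 7 member windows 4 held GGGCGG on either strand, beside 35.7% of all 32851 windows. GGAATG, the core bound by TEAD factors of the Hippo pathway, was in 0 of the 7 on either strand, beside 14.7% of all windows, and TATAAA was in 0, beside 13.6%. No binding data accompany these windows, and nothing about a factor follows from the letters.

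The lysyl oxidases differed among themselves. Lox (ENSMUSG00000024529, chromosome 18, 52649139 to 52662939, minus strand) oxidises lysines in both collagen and elastin. It lay at 39.2, 40.7, 39.5 and 30.9 FPKM in the controls and at 35.3, 37.5, 28.5 and 29.1 FPKM in the cKO-labelled libraries. The groups overlapped only through control 4, the low control, and the fold change was -0.20 ± 0.12 on the log2 scale (SE, limma adjusted p = 0.371).

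Loxl1 (ENSMUSG00000032334, chromosome 9, 58195021 to 58220469, minus strand), which is directed to elastin through fibulin-5, was lower in most of the cKO-labelled libraries. It lay at 10.1, 10.8, 10.5 and 8.20 FPKM in the controls and at 6.22, 8.84, 5.31 and 5.02 FPKM in the cKO-labelled libraries. Only cKO 2 reached into the range of the controls, just above control 4. For Loxl1 the log2 fold change was -0.59 ± 0.16 (SE), the interval of the fold ran from 0.519 to 0.854, and the adjusted p was 0.0897 (limma).

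Loxl2 (ENSMUSG00000034205, chromosome 14, 69846517 to 69933283, plus strand) acts on collagen IV of basement membranes and was the steadiest member. It lay at 20.2, 21.8, 20.8 and 20.2 FPKM in the controls and at 22.3, 23.0, 21.7 and 22.8 FPKM in the cKO-labelled libraries. Control 2 and cKO 3 crossed by a small margin, and the numbers in the titles made almost no difference. Loxl2 differed by 0.11 ± 0.06 on the log2 scale (SE, limma adjusted p = 0.343), with an interval of the fold from 0.976 to 1.19. With scaling by summed reads the log2 difference was 0.042 (limma adjusted p = 0.731).

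Within a library, Loxl1 relative to Lox was lower in the cKO-labelled group, a difference that was not kept after a joint correction for GC content and gene length. The log2 ratio of Loxl1 to Lox was -1.83 ± 0.03 in the controls and -2.21 ± 0.17 in the cKO-labelled libraries (SD, n = 4 each). The 4 controls were tight and the groups did not overlap, with a difference of -0.39 (exact permutation p = 0.0286, and 0.0476 adjusted over the 5 ratios). Loxl1 is rich in GC (61.0%) and Lox poor (43.9%), and their gene lengths were 3297 and 4778 bases. After the GC content and length correction the difference was -0.024, with overlapping groups (exact permutation p = 0.83, and 0.83 adjusted). The part of GC content or of length in the difference was not tested. Loxl2 relative to Lox lay higher by 0.31 on the log2 scale with overlapping groups (exact permutation p = 0.0857, and 0.107 adjusted), and by 0.48 after that correction (0.0714 adjusted). Of the summed FPKM of the 5 family members, Loxl1 made up 13.5% ± 0.43 in the controls and 9.65% ± 1.59 in the cKO-labelled libraries, and Loxl2 28.6% ± 2.25 and 34.8% ± 3.39. Lox itself held 51.4% ± 1.83 and 50.1% ± 1.57. These shares carry no GC correction. The ratios were chosen with earlier results of these data known, so the passing ones are not independent evidence. With 1 library left out, the adjusted p of each of the 3 ratios that passed rose to between 0.0714 and 0.143, while the differences kept their sign.

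**Figure D2:**
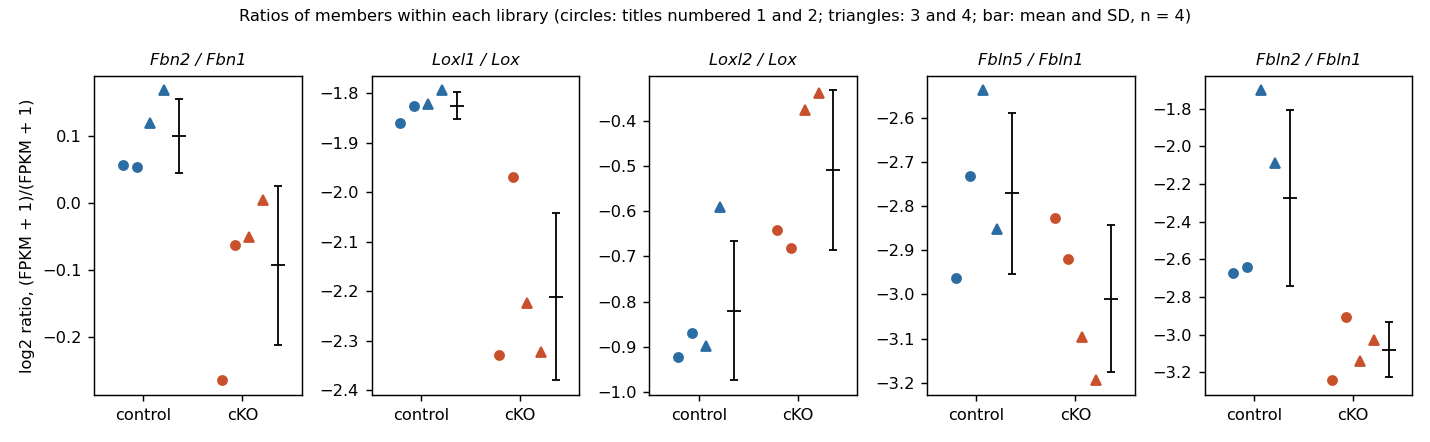
Log2 ratio of 2 members within each library, with 1 added to each FPKM, for 5 pairs, and the group mean with its SD in black (circles for titles numbered 1 and 2, triangles for 3 and 4). With no GC correction, the groups are apart for Fbn2 to Fbn1, Loxl1 to Lox and Fbln2 to Fbln1 and overlap for Loxl2 to Lox and Fbln5 to Fbln1.

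Emilin1 (ENSMUSG00000029163, chromosome 5, 31070746 to 31078621, plus strand) encodes a glycoprotein at the interface of elastin and microfibrils that also restrains the maturation of TGF-beta. It lay at 48.8, 46.6, 35.0 and 30.9 FPKM in the controls and at 31.6, 39.2, 23.2 and 23.7 FPKM in the cKO-labelled libraries. Libraries cKO 1 and 2 fell among controls 3 and 4 or above them, while cKO 3 and 4 lay below every control. Emilin1 differed by -0.45 ± 0.20 on the log2 scale (SE, limma adjusted p = 0.232), with an interval of the fold from 0.532 to 1.01.

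Most members changed level with the number in the title in both groups. For 6 of the 10, Eln, Fbn1, Fbn2, Fbln1, Fbln5 and Emilin1, libraries 1 and 2 lay above libraries 3 and 4 without overlap in the controls and again in the cKO-labelled libraries, as did 14.4% of all genes. The step from 1 and 2 to 3 and 4 was -0.77 in the controls and -0.68 in the cKO-labelled libraries for Fbn1 on the log2(FPKM + 1) scale. For Loxl2 it was -0.03 and -0.02. The labels do not say what the numbers stand for, and no batch or litter is named. Set side by side within the same numbers, 7 of the 10 members were lower without overlap in the cKO-labelled libraries among libraries 1 and 2 and again among 3 and 4, as were 11.9% of all genes. The 3 exceptions were Fbn1, Fbln1 and Loxl2. For Eln the difference was -0.50 among libraries 1 and 2 and -0.81 among 3 and 4, for Fbln2 -0.59 and -1.07, for Loxl1 -0.44 and -0.74, and for Emilin1 -0.43 and -0.47. With 2 libraries a side, these are values with no test.

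**Figure D3:**
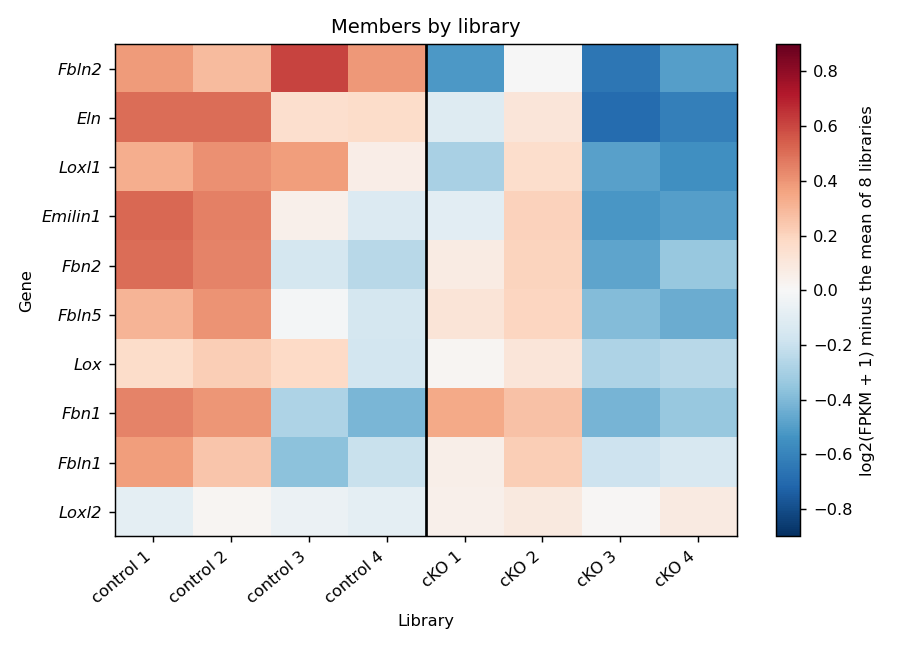
Log2(FPKM + 1) of each member in each library minus its mean over the 8 libraries, with red above and blue below the mean and the controls to the left of the line. Fbln2, Eln and Loxl1 are above their mean in all 4 controls and below it in cKO 1, 3 and 4, Fbn1 and Fbln1 follow the numbers in both groups, and Loxl2 is pale throughout.

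The calls for these genes rested on which libraries and terms entered the fit. With array quality weights, under which libraries that fitted the model poorly counted less and cKO 2 had the lowest weight, 0.329, limma called Eln, Fbln2, Loxl1 and Emilin1 lower, as it did 7.24% of all genes. The same 4 members were called with a term for titles numbered 1 and 2 against 3 and 4, where 3.4% of all genes were called lower. Without cKO 2, Eln, Fbln2 and Loxl1 were called (limma adjusted p = 0.0303, 0.0164 and 0.0178), beside 4.15% of all genes. Averaged over 10 epithelial markers, log2(FPKM + 1) minus each gene's mean was -0.18 in cKO 2 and 0.08 to 0.19 in the other cKO-labelled libraries. Over 10 smooth muscle markers it was 0.15 and -0.24 to -0.14. The bearing of these marker values on the calls was not tested. Over all alternatives the adjusted p of Eln ran from 0.0189 to 0.374, that of Fbln2 from 0.0152 to 0.235 and that of Loxl1 from 0.0159 to 0.401, and the direction of these 3 and of Emilin1 did not turn.

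The members with the largest differences were also the richest in GC. Emilin1 (61.1% GC), Loxl1 (61.0%), Eln (58.8%) and Fbln2 (57.0%) lay, with Fbln1 (54.7%), in the top of 4 equal bins of GC content, whose median log2 fold change was -0.17, against 0.16 in the lowest. After a correction for GC content and gene length in each library, Fbln2 had a log2 fold change of -0.69, Eln of -0.49, Loxl1 of -0.37 and Emilin1 of -0.24 (limma adjusted p = 0.235, 0.374, 0.401 and 0.531). The unadjusted limma p of these 4 in that fit were 0.00092, 0.0117, 0.0234 and 0.147. Lox (43.9% GC) and Fbln5 (46.9% GC) moved the other way, to -0.35 and -0.36. The median over the 10 members was then -0.29. The part of GC content in the differences was not tested.

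**Figure D4:**
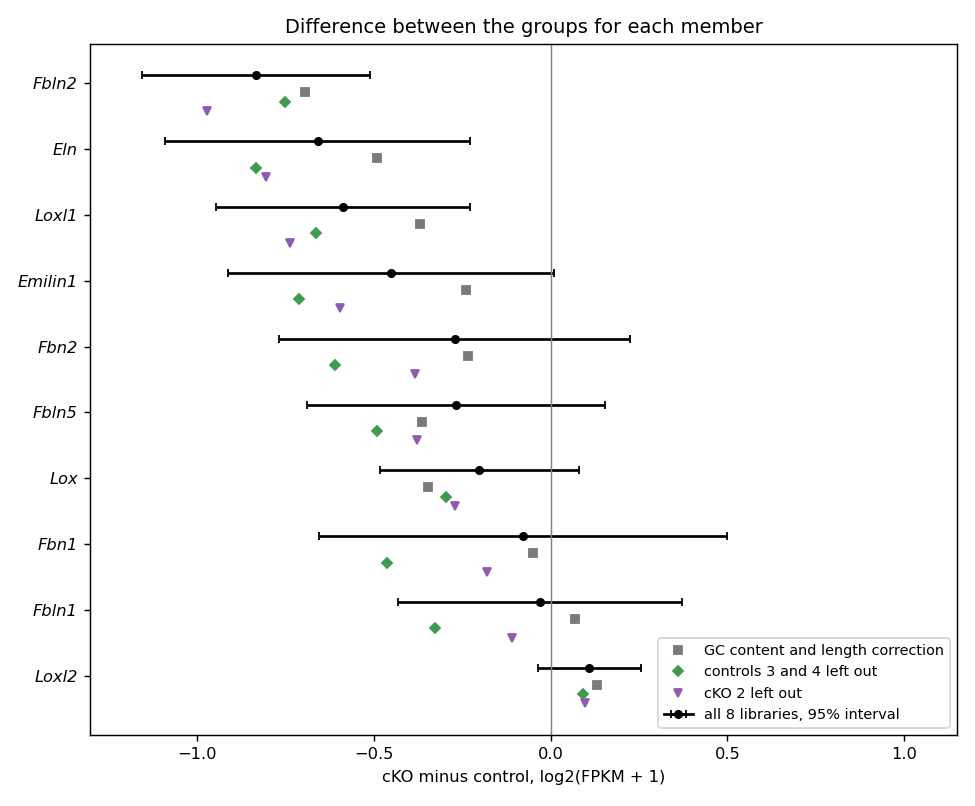
Difference in log2(FPKM + 1) between the cKO-labelled libraries and the controls for each member, with the 95% interval from all 8 libraries in black and the values after the GC content and length correction, without controls 3 and 4 and without cKO 2 as coloured points. Fbln2, Eln and Loxl1 have intervals below 0, and their points stay below 0 under all 3 alternatives.

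Among 34 other genes of the elastic fibre and its assembly, 27 passed the filter, 25 of them had a log2 fold change below 0, as did 50.3% of all genes, and 0 were called by limma in either direction. Their median log2 fold change was -0.31. Groups without overlap were seen for 3 of the 27 on the lower side and 1 on the higher, beside 5.75% and 9.61% of all genes. At an unadjusted p under 0.05 there were 8 lower and 1 higher, beside 9.87% and 12.6% of all genes. limma-voom on the recovered reads called 0, with 8 and 1 at that rule, beside 9.71% and 12.8%. Without cKO 2, limma called 4 of them lower, Mfap2, Mfap4, Ltbp3 and Bmp1, beside 4.15% of all genes, and with array quality weights it called 8, beside 7.24%.

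The latent TGF-beta binding proteins, relatives of the fibrillins, held the smallest p-value of this list. Ltbp3, which carries latent TGF-beta, lay at 10.2, 10.2, 10.3 and 8.84 FPKM in the controls and at 6.25, 8.35, 5.54 and 5.98 FPKM in the cKO-labelled libraries. The groups did not overlap, as in 5.75% of all genes on the lower side, and cKO 2 came closest to control 4. Ltbp3 differed by -0.54 ± 0.12 on the log2 scale (SE, limma adjusted p = 0.0758). Ltbp4, which is needed for elastic fibre assembly with fibulin-4 and fibulin-5, lay at 64.0 ± 14.9 and 45.5 ± 11.3 FPKM (SD, n = 4 each, limma adjusted p = 0.214). Ltbp1 lay at 7.15 ± 1.06 and 5.71 ± 1.81 FPKM, and Ltbp2 averaged 0.52 FPKM over the 8 libraries and was not tested.

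Bmp1, the metalloproteinase that releases active lysyl oxidase from its precursor and trims procollagens, lay at 11.6, 11.6, 12.6 and 12.8 FPKM in the controls and at 8.80, 10.3, 7.63 and 8.34 FPKM in the cKO-labelled libraries. The groups did not overlap, as in 5.75% of all genes on the lower side, and controls 3 and 4 were the high ones here. Bmp1 differed by -0.43 ± 0.09 on the log2 scale (SE, limma adjusted p = 0.0758). Pcolce, an enhancer of that enzyme, lay at 17.5 ± 4.44 and 13.9 ± 3.51 FPKM.

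Of the microfibril-associated genes, Mfap2 and Mfap4 were abundant. Mfap4 lay at 92.4, 102.8, 86.1 and 72.3 FPKM in the controls and at 67.3, 84.5, 49.6 and 53.7 FPKM in the cKO-labelled libraries, with cKO 2 inside the control range (limma adjusted p = 0.159). Mfap2, which encodes MAGP-1, lay at 87.7 ± 12.1 and 64.5 ± 21.6 FPKM (SD, n = 4 each, limma adjusted p = 0.222). Mfap5 averaged 0.41 FPKM and was not tested. Adamts10, a secreted protease-family gene tied to fibrillin microfibrils, lay at 5.51, 5.37, 9.10 and 8.43 FPKM in the controls and at 3.93, 5.13, 4.17 and 3.59 FPKM in the cKO-labelled libraries. Controls 3 and 4 were far above controls 1 and 2. The groups did not overlap, as in 5.75% of all genes on the lower side (log2 fold change -0.62 ± 0.17, SE, limma adjusted p = 0.0953). Its relative Adamts17 differed by -0.40 ± 0.16 on the log2 scale (SE, limma adjusted p = 0.183).

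Efemp2, which encodes fibulin-4, the fibulin that brings lysyl oxidase to elastin, lay at 16.5 ± 2.23 and 13.5 ± 4.21 FPKM (SD, n = 4 each, limma adjusted p = 0.375). Efemp1, or fibulin-3, lay at 5.38 ± 1.41 and 3.98 ± 0.68 FPKM (limma adjusted p = 0.277). The minor lysyl oxidases lay low, Loxl3 at 2.92 ± 0.35 and 2.20 ± 0.61 FPKM and Loxl4 at 1.81 ± 0.72 and 1.396 ± 0.35 FPKM. Atp7a, the copper pump that loads lysyl oxidases with their metal, was the gene of smallest p on the higher side. It lay at 5.11, 4.72, 4.35 and 4.36 FPKM in the controls and at 5.74, 5.31, 5.33 and 6.02 FPKM in the cKO-labelled libraries. All 4 cKO-labelled libraries stood above all controls, as in 9.61% of all genes, with a log2 difference of 0.23 ± 0.08 (SE, limma adjusted p = 0.135).

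**Figure D5:**
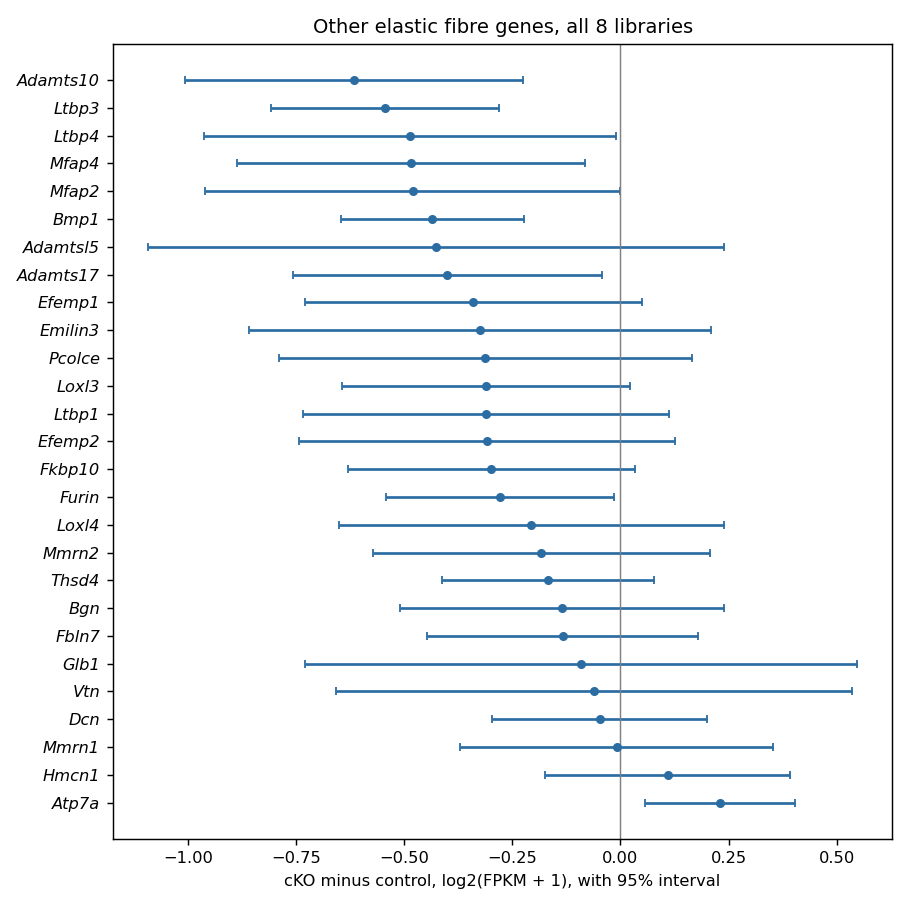
Difference in log2(FPKM + 1) between the cKO-labelled libraries and the controls, with 95% intervals from limma over 8 libraries, for the 27 other elastic fibre genes that passed the filter. Points for 25 genes lie below 0, and Atp7a has the only interval wholly above 0.

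Genes of the cell types that make elastic fibres moved with these values to different degrees. Of 9 tested fibroblast markers 7 lay lower, with a median log2 fold change of -0.17, and 7 split by number in both groups as the members did. Their FPKM summed over the 10 listed markers to 734.2 to 1226 in the controls and 650.0 to 1109 in the cKO-labelled libraries, with none at 0. Col1a1, a collagen I chain, lay at 388.7, 374.0, 216.0 and 193.7 FPKM in the controls and 255.5, 295.1, 154.4 and 162.4 FPKM in the cKO-labelled libraries. Pdgfra, a receptor of gut mesenchyme, lay at 20.5 ± 0.73 and 22.6 ± 0.85 FPKM and showed no such split. Every cKO-labelled library lay above every control for Pdgfra, as in 9.61% of all genes (limma adjusted p = 0.264). Twist2 averaged 0.39 FPKM in the controls and 0.22 in the other group, below the filter.

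Smooth muscle markers lay lower in 8 of 10 cases, with a median of -0.24 and summed FPKM of 1255 to 1784 against 1122 to 1527. Mesothelial markers lay lower in 9 of 9 tested, with a median of -0.57, and summed to 204.2 to 266.5 against 186.1 to 212.7 FPKM, most of it Krt19, which epithelium also makes. Of the 10 mesothelial genes 9, all but Krt19, were highest in controls 3 and 4, unlike most members but like Fbln2 in control 3, Adamts10 and Bmp1. Vessel endothelial markers lay lower in 5 of 10, with a median of 0.05, and epithelial markers in 2 of 10, with a median of 0.13. The split by number in both groups was not particular to fibroblast markers. It was seen in 7 of 10 smooth muscle, 7 of 10 vessel endothelial, 0 mesothelial and 0 epithelial markers, and in 14.4% of all genes. Lower without overlap within both ranges of numbers were 6 smooth muscle, 5 mesothelial, 4 fibroblast, 0 vessel endothelial and 0 epithelial markers, beside 11.9% of all genes. No marker of these 5 lists was at 0 in every library, and 5 of 6 cartilage and bone markers averaged under 1 FPKM. The part of these cell types in the differences was not tested.

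By the mean absolute difference between profiles centred on their own mean, over the 8 libraries and 12268 other protein-coding genes, the genes nearest to Eln were Jph2 (0.094), Myl9 (0.099), Hand2 (0.10), Rgma (0.11) and Dact3 (0.11), beside a median of 0.39 for all candidates. Myl9 encodes a smooth muscle myosin light chain and Hand2 a mesenchymal transcription factor. Nearest to the mean profile of the 10 members were Fkbp10 (0.037), Plekhh3 (0.040), Hand1 (0.045), Sparc (0.046) and B4galt2 (0.047), beside a median of 0.26. Fkbp10 encodes a chaperone of tropoelastin and collagen in the secretory pathway, and Sparc a collagen-binding matrix protein.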

How the data were processed

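The authors deposited 1 table of FPKM values for 55681 genes in 8 libraries of whole E15.5 small intestine, with positions and gene lengths, and 3 blank lines of the copy used are not analysed here. Per the submitters' processing notes, CASAVA, fastp, HISAT2, featureCounts, DESeq2 1.20.0 and the build GRCm39 were used, with no role stated. Whether counting used strand was not given in the sources used here. Columns were matched by name to the library titles. FPKM times gene length was a whole multiple of 1 step per library, within 0.01, for 100% of the values above 0, and gave reads per gene. limma 3.58.1 (R 4.3.3) was run on log2(FPKM + 1) with an intensity trend for the 14220 genes averaging 1 FPKM or more, with Benjamini-Hochberg adjustment over all of them and a threshold of 0.05. The added 1 shrinks the change of low genes. The labels do not say whether the 4 samples of a group are separate litters, so p-values measure the spread between these samples, which may be partly technical. Ratios used exact 2-sided permutation tests, and their GC content and length correction was added after seeing the data. GC content came from the longest GENCODE M21 transcript, found by gene identifier for 93.5% of genes. The scripts were tested on simulated reads. Members and lists were chosen with earlier results of these data known. Named were the members, 11 listed relatives, the 6 other list genes of smallest p and the 5 nearest profiles, and any other gene was chosen after its values were seen. Alternatives were the pseudocount, filter, scaling, trend, weights, the number as a block or a term, an Xist term, protein-coding genes, GC and length, limma-voom and libraries left out. The labels give no sex, so the Xist term set libraries above 10 FPKM of Xist (controls 2 and 4, cKO 1, 2 and 3) against the others.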

Additional observations from a re-analysis of the deposited data

Results flagged for a closer look

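Of 30 groups of 4 values checked for a sample far from the rest (10 members and 5 ratios in 2 groups each), 2 were picked out, and chance picks out about 5% of groups. Lox in control 4 lay at 30.9 FPKM, with the other 3 controls at 39.2 to 40.7 FPKM. The log2 ratio of Loxl2 to Lox in control 4, which shares that Lox value, was -0.59, with the other 3 controls at -0.92 to -0.87.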

How the results depend on the processing

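Of the 10 members, Eln, Fbln2, Loxl1, Emilin1, Fbn2, Fbln5, Lox and Loxl2 kept their direction in all 23 alternatives run, and the median over the members lay between -0.55 and -0.17. Fbn1 turned to 0.058 without control 1, 0.042 without control 2, 0.049 without cKO 3 and 0.023 without cKO 4, in a range from -0.23 with single libraries left out, and stood at -0.46 without controls 3 and 4. Fbln1 turned to 0.068 with the GC and length correction, 0.092 without control 1, 0.048 without control 2, 0.028 without cKO 3 and 0.014 without cKO 4, in a range from -0.16 with single libraries left out, and stood at -0.33 without controls 3 and 4. The cause was not tested.

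Against 0 genes higher and 2 lower over all genes, limma called 22 and 23 with a mean of at least 5 FPKM (1 member lower), where fewer genes were tested. It called 12 and 19 with median-ratio scaling, 5 and 23 with summed reads, 14 and 20 with quantile normalization. It called 1180 and 1029 with array quality weights, whose estimation stopped before its tolerance was reached (4 members and 8 other elastic fibre genes lower). It called 615 and 484 with the term for titles 1 and 2 against 3 and 4 (4 members and 6 others lower). The lower count was 0 with the pseudocount of 0.1, no filter, the Xist term and limma-voom, and 1 with protein-coding genes. On the higher side 1 gene was called with the GC and length correction and 1 without controls 3 and 4. With the replicate block the lower count was 0. Same-numbered deviations correlated at 0.069, 0.326, 0.150 and 0.213 for numbers 1 to 4, and 3 of 8 libraries correlated best with their own number. Since number 1 fell under 0.1, the numbers were not taken as pairs. With 1 library left out the counts ran from 0 to 792 higher and 0 to 590 lower, with 0 to 3 members and 0 to 4 others lower, all the highest without cKO 2. Left-out libraries moved the log2 difference between -0.23 and -0.14 for Fbn2 to Fbn1, between -0.47 and -0.35 for Loxl1 to Lox and between -0.94 and -0.61 for Fbln2 to Fbln1. Without controls 3 and 4 these were -0.15, -0.37 and -0.42 (exact permutation, adjusted p = 0.25, 0.167 and 0.167), with 15 assignments that cannot reach the threshold. With the GC content and length correction, an alternative for the ratios chosen after seeing the data, Loxl1 to Lox was at -0.024 and Fbln5 to Fbln1 at -0.43 (exact permutation, adjusted p = 0.83 and 0.0476).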
